A study of Homo sapiens with 4 samples.

Results

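The genes described here are 9 markers used to recognise hepatic cancer stem cells (HCSCs): PROM1, EPCAM, THY1, CD44, ANPEP, SOX9, ALDH1A1, ICAM1 and CD47. They were taken by gene symbol from the count tables and are 9 of the 16370 genes listed in at least 1 table. The 4 libraries are mRNA sequencing libraries of human hepatoma cell lines. Hep3B and Huh7 were grown as hepatocellular carcinoma (HCC) cells. The stem-like cultures raised from these lines in the laboratory of the study, Hep3B-C and Huh7-C, were labelled as hepatic cancer stem cells. No other treatment, time point or genetic change was given in the labels, and the culture step that separates each HCSC line from its parent was not described in the sources used here. Each line is represented by 1 library. All the tests between libraries below therefore cover the counting error of the reads only, compare libraries and not conditions, and have no replicate check. In a culture, fewer marker-bearing cells and less RNA per cell cannot be told apart.

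Cancer stem cells are tumor cells that are thought to renew themselves and to seed new tumors. In liver cancer they have mostly been enriched by sorting on surface proteins, above all CD133, EpCAM and CD90, which are the products of PROM1, EPCAM and THY1. CD44, CD13 (the product of ANPEP), ICAM-1 and CD47 have been added to these as adhesion molecules, an ectoenzyme and a signal against phagocytosis. SOX9 is a transcription factor of biliary and progenitor cells, and ALDH1A1 is a cytosolic aldehyde dehydrogenase read in functional sorts for dehydrogenase activity. In the gene annotation deposited with the counts, 7 of the 9 genes carried a plasma membrane or cell surface term. SOX9 and ALDH1A1 carried none, so the name surface marker does not hold for these 2.

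The total count ranged from 2896418 in Hep3B to 4641927 in Hep3B-C, and was 4537510 for Huh7 and 4333808 for Huh7-C. Levels are given as counts per 1000000 (CPM), with an exact 95% Poisson interval. A count of 0 allowed a level of up to 1.04 CPM in Hep3B and 0.646 to 0.692 CPM in the other libraries (3 counts). All 10 hepatocyte markers examined had at least 10 counts in every library, whereas PTPRC, CD3E and HBB, which define leukocytes and red cells, had 0 counts in all 4. LYZ and CD68, which myeloid cells express strongly, had 236 to 832 and 289 to 1254 counts. Parentage was checked with genes found in 1 parental line alone. Of 237 genes with at least 20 counts in Hep3B and 0 in Huh7, 142 reached 20 counts in Hep3B-C and 2 in Huh7-C, and of 161 genes with the reverse pattern, 8 did so in Hep3B-C and 112 in Huh7-C. Scaling on the bulk of the genes by the trimmed mean of M-values (TMM) raised every log2 ratio of the Hep3B pair by 0.60 and lowered every one of the Huh7 pair by 0.041. The log2 ratio of the Hep3B pair also followed GC content. Its median over genes ran from -1.70 in the decile of genes with the lowest GC content to 1.10 in the decile with the highest, against 0.15 and 0.042 in the Huh7 pair. Both values are set beside the markers of the Hep3B pair below, and their part in those results was not tested.

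Of the 9 markers, 8 had at least 20 counts in at least 1 library, the exception being THY1. Hep3B held the highest level of 5 of them (PROM1, EPCAM, SOX9, ICAM1 and CD47), Hep3B-C of ANPEP, Huh7-C of ALDH1A1 and Huh7 of CD44. The summed level of the 9 markers was 2299 CPM in Hep3B against 1753 in Hep3B-C, and 762 in Huh7 against 1480 in Huh7-C. Per kilobase of transcript (RPKM), which allows genes to be compared, ALDH1A1 was the most abundant marker in 3 of the 4 libraries, at 430 RPKM in Huh7-C, 338 in Hep3B-C and 155 in Huh7. In Hep3B, ALDH1A1 at 217 RPKM stood below EPCAM at 299.6 RPKM. Apart from THY1 and the libraries with no CD44 count, CD47 was the lowest marker per kilobase in Hep3B, Hep3B-C and Huh7, with 11.1, 2.54 and 3.55 RPKM, and CD44 was the lowest in Huh7-C, with 0.886 RPKM.

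**Figure D1:**
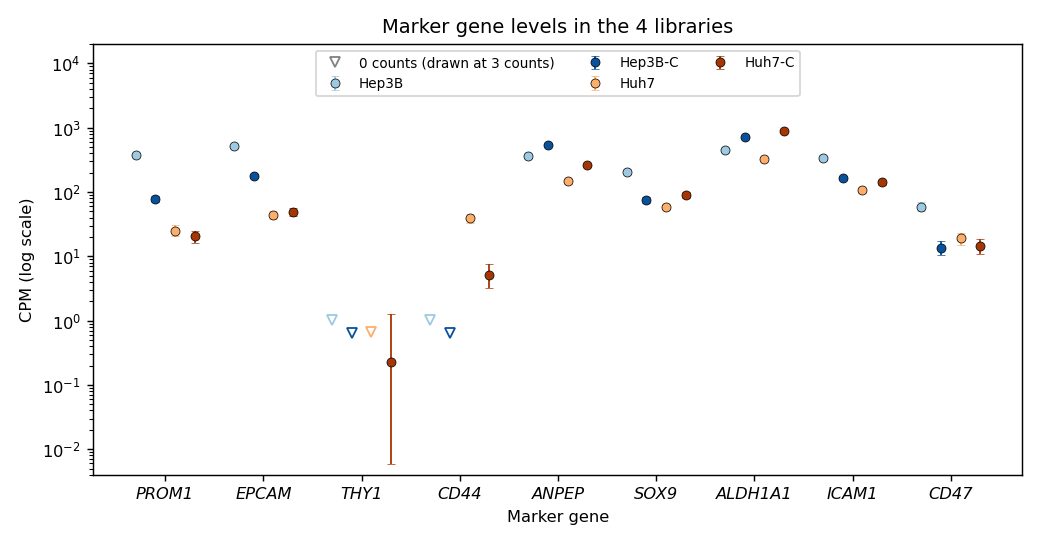
Level of each marker gene in the 4 libraries, in CPM on a log scale. Filled points are the measured levels with exact 95% Poisson intervals, and open triangles are libraries with 0 counts, drawn at 3 counts. PROM1 and EPCAM are ordered by parental line with both Huh7 libraries lowest, CD44 has points in the Huh7 lineage alone, and ALDH1A1 and ANPEP are higher in each HCSC library than in its parent.

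In the Hep3B pair, 5 of the 7 listed markers were down-regulated in Hep3B-C and 0 were up-regulated. A gene was called where the Poisson test of the 2 counts gave a false discovery rate (FDR) of at most 0.01 over all genes of the pair and the ratio was at least 2-fold. Of all 15480 genes in this pair, 30.4% were down-regulated and 13.2% up-regulated by the same rule. The median log2 ratio was -1.46 over the 7 markers and -0.55 over the 11433 genes with at least 20 counts. All 7 passed the FDR threshold when the fold was left out. The share of all genes that did so was not counted, so this does not set the markers apart. With TMM library sizes, 2 markers were up-regulated (ANPEP and ALDH1A1) and 2 were down-regulated (PROM1 and CD47), against 21.6% and 18.1% of all genes by the same scaling. After removal of the GC and length trends 1 marker was up-regulated (ALDH1A1) and 4 were down-regulated (PROM1, EPCAM, SOX9 and ICAM1), against 5.23% and 21.0% of all genes. These shares of all genes are also the background for the Hep3B splits of the gene lists below, setting by setting.

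In the Huh7 pair, 1 of the 9 listed markers was up-regulated in Huh7-C (ALDH1A1) and 1 was down-regulated (CD44). The background of this pair was 4.19% up-regulated and 4.15% down-regulated among 14807 genes. The median log2 ratio was 0.29 over the 8 markers with at least 20 counts and 0.06 over 11134 genes. ANPEP, SOX9 and ICAM1 also passed the FDR threshold, below 2-fold. The share of all genes that passed it with the fold left out was not counted here either. Both calls stood with TMM library sizes, at log2 ratios of 1.43 for ALDH1A1 and -2.95 for CD44.

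**Figure D2:**
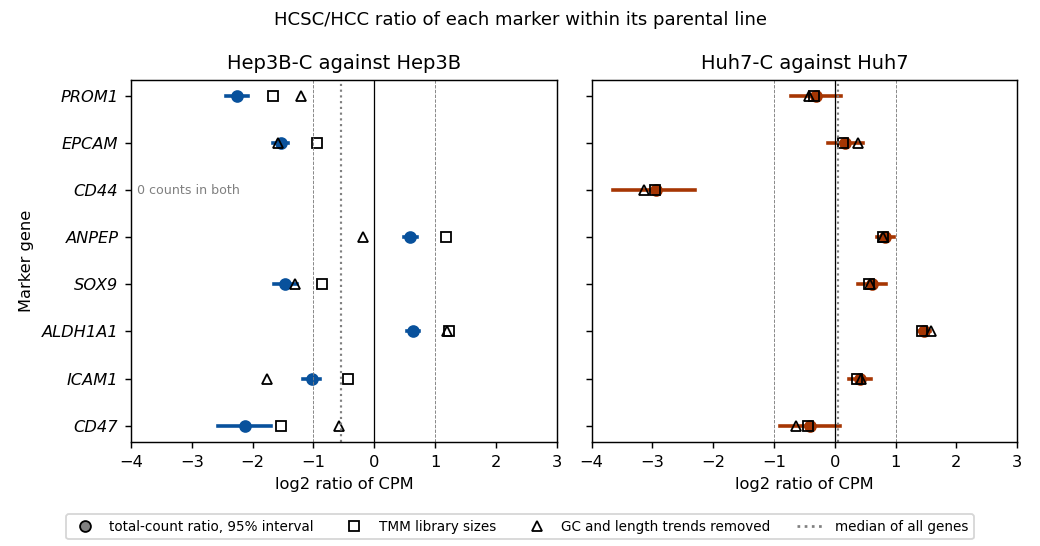
Log2 ratio of the CPM of each HCSC library to its parental HCC library for the 8 markers other than THY1. Filled circles are total-count ratios with 95% counting intervals, squares use TMM library sizes, triangles have the trends over GC content and length taken out, dashed lines mark 2-fold and the dotted line the median of all genes. In the Hep3B pair the values of a marker spread more widely than in the Huh7 pair, and ANPEP lies above 0 by 2 of them and at -0.19 by the other.

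PROM1 encodes prominin-1, a pentaspan glycoprotein of membrane protrusions (Entrez 8842, chromosome 4, 15963076 to 16084378, minus strand, GRCh38, GENCODE 29). Its level was 371 CPM (349.6 to 394) in Hep3B against 77.8 (70.0 to 86.2) in Hep3B-C, and 25.1 (20.7 to 30.2) in Huh7 against 20.3 (16.3 to 25.02) in Huh7-C. The Hep3B library stood far above the others, and the intervals of both Huh7 libraries overlapped. PROM1 was down-regulated 4.78-fold (95% interval 4.24 to 5.40) in Hep3B-C, a log2 ratio of -2.25 with an SE of 0.088 (FDR 1.1e-171). The log2 ratio was -1.66 with TMM library sizes and -1.20 after removal of the GC and length trends, and 11.8% of the genes in this pair had a lower ratio. Among the 1134 genes of the same GC decile, 18.0% were lower. In the Huh7 pair the log2 ratio was -0.31 (SE 0.20, FDR 0.27), with a ratio of 0.808 and an interval of 0.605 to 1.08.

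EPCAM encodes the epithelial cell adhesion molecule (Entrez 4072, chromosome 2, 47345158 to 47387601, plus strand), whose intracellular domain is released by ADAM17 and the gamma-secretase complex and acts in the nucleus with FHL2 and beta-catenin. EPCAM stood at 514 CPM (488 to 541) in Hep3B against 177 (165 to 189) in Hep3B-C, and 43.2 (37.4 to 49.7) in Huh7 against 48.7 (42.3 to 55.7) in Huh7-C. The order of the libraries was close to that of PROM1, with both Huh7 libraries low and overlapping. EPCAM was down-regulated 2.91-fold (2.67 to 3.17) in Hep3B-C, a log2 ratio of -1.54 (SE 0.063, FDR 1.9e-139). It was -0.95 with TMM library sizes, which is below 2-fold, -1.59 after removal of the GC and length trends and -2.22 after removal of the length trend alone. In the Huh7 pair the ratio was 1.13 (0.924 to 1.38) and the log2 ratio 0.17 (SE 0.14, FDR 0.44).

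Among 13 genes of EPCAM cleavage and its partners, 11 were listed in the Hep3B pair, with 0 up- and 1 down-regulated. The shares of all genes were 13.2% and 30.4%. The gene down-regulated was ADAM17, at a log2 ratio of -1.10 (FDR 3.3e-07). With TMM library sizes the split was 3 up and 0 down, ADAM17 no longer among the calls. After removal of the GC and length trends it was 0 up and 2 down (PSENEN and FHL2), and PSENEN, a gamma-secretase subunit named after its values were seen, was called up by the TMM sizes. In the Huh7 pair 12 were listed, with 1 up- and 3 down-regulated, against 4.19% and 4.15% of all genes. APH1B, a gamma-secretase subunit, fell from 14.5 to 2.08 CPM (log2 ratio -2.74, FDR 1.9e-10), and FHL2 fell from 68 to 13 counts (log2 ratio -2.28, FDR 8.1e-09). The other calls, TSPAN8 (up) and CD9 (down), both tetraspanins, were named after their values were seen.

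THY1 encodes CD90, a glycolipid-anchored protein of fibroblasts and neurons (Entrez 7070, chromosome 11, 119417378 to 119424985, minus strand). It had 0 counts in Hep3B, Hep3B-C and Huh7 and 1 count in Huh7-C, a level of 0.231 CPM (0.00584 to 1.29). The gene was not detectable as different between any of the libraries at this depth. The other fibroblast genes examined were uneven. DCN had 0 counts in all 4 libraries, whereas PDGFRB had 186 counts in Huh7, 28 in Hep3B, 45 in Hep3B-C and 2 in Huh7-C, and COL3A1 had 58 counts in Huh7-C and at most 1 in the others. The summed level of the fibroblast list was 14.5 CPM in Hep3B against 11.0 in Hep3B-C, and 45.2 in Huh7 against 15.7 in Huh7-C, with 1 or 2 of its 8 genes at 10 counts or more in each library.

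CD44 encodes the main receptor for hyaluronan (Entrez 960, chromosome 11, 35138870 to 35232402, plus strand), and was the marker with the sharpest split by parental line. It had 0 counts in both Hep3B libraries, against 177 in Huh7 and 22 in Huh7-C. The level was 39.0 CPM (33.5 to 45.2) in Huh7 and 5.08 CPM (3.18 to 7.69) in Huh7-C. With Hep3B and Hep3B-C set at the limit of 3 counts per library, Huh7 was at least 37.7-fold higher than Hep3B and at least 60.4-fold higher than Hep3B-C, and Huh7-C at least 4.90-fold and 7.85-fold higher. With the counting error of both libraries included, the exact 95% lower bounds of these ratios were smaller, at 30.3, 48.6, 3.66 and 5.87 in the same order. In Huh7-C, CD44 was down-regulated 7.68-fold (4.92 to 12.6), a log2 ratio of -2.91 (SE 0.32, FDR 1.7e-28). In this pair, 0.710% of all genes had a lower ratio, and 0.181% of the 1106 genes in the same GC decile. The counts are per gene, so the standard and variant splice forms of CD44 are not separated.

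Of 17 genes of CD44 and hyaluronan biology, 16 were listed in the Hep3B pair with 3 up- and 5 down-regulated, against 13.2% and 30.4% of all genes. The Huh7 pair listed 14, with 1 up- and 0 down-regulated, against 4.19% and 4.15% of all genes. SPP1, whose product osteopontin is a CD44 ligand, rose from 3 to 137 counts in Hep3B-C (1.04 to 29.5 CPM, FDR 4.6e-24). ESRP1, a splicing factor that favours CD44 variant exons, fell from 220.3 to 30.2 CPM (log2 ratio -2.86, FDR 9.2e-136). ADAM10, a sheddase of CD44, fell from 226 to 36.4 CPM (log2 ratio -2.63, FDR 5.7e-127) in Hep3B-C. In Huh7-C, ADAM10 went from 54.7 to 87.0 CPM (log2 ratio 0.67, FDR 1.0e-07), which is below 2-fold. The gene called in the Huh7 pair was HYAL1, a hyaluronidase, at a log2 ratio of 1.46 (FDR 3.2e-65). It was also up-regulated in Hep3B-C, at 2.10 (FDR 2.1e-31), and was named after its values were seen. The Hep3B split was 6 up and 2 down with TMM library sizes and 3 up and 3 down after removal of the GC and length trends, and SPP1, HYAL1, ESRP1 and ADAM10 were called in each case.

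ICAM1 encodes an adhesion molecule that binds leukocyte integrins and is a target gene of NF-kB (Entrez 3383, chromosome 19, 10270835 to 10286615, plus strand). The level was 335 CPM (314 to 357) in Hep3B against 164 (153 to 176) in Hep3B-C, and 106 (97.0 to 116) in Huh7 against 141 (130.5 to 153) in Huh7-C. Hep3B stood above the other 3, and the intervals of both HCSC libraries overlapped (FDR 0.013). With TMM library sizes the log2 ratio of Huh7-C to Hep3B-C was -0.42 and passed the FDR threshold (FDR 2.4e-07). ICAM1 was down-regulated 2.04-fold (1.86 to 2.25) in Hep3B-C, a log2 ratio of -1.03 (SE 0.070, FDR 1.4e-48), which sits at the edge of the 2-fold rule. It was below 2-fold with TMM library sizes (-0.43) and after removal of the length trend alone (-0.91), and -1.76 after removal of the GC and length trends. In Huh7-C the ratio was 1.33 (1.18 to 1.50), with a log2 ratio of 0.41 (SE 0.088, FDR 1.7e-05).

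All 16 genes of the ICAM1 family, its receptors and NF-kB were listed in the Hep3B pair, with 2 up- and 2 down-regulated. The shares of all genes were 13.2% and 30.4%. The Huh7 pair listed 14, with 0 up- and 2 down-regulated, against 4.19% and 4.15% of all genes. TNFAIP3, an NF-kB-induced inhibitor of the same pathway, fell in both pairs, from 122 to 14.4 CPM in Hep3B-C (log2 ratio -3.07, FDR 2.4e-81) and from 13.0 to 3.46 CPM in Huh7-C (log2 ratio -1.87, FDR 3.2e-06). ICAM3 rose from 5.18 to 29.3 CPM in Hep3B-C (log2 ratio 2.46, FDR 2.4e-14) and stood at 37.5 and 36.7 CPM in Huh7 and Huh7-C. ITGAL, a chain of the integrin that binds ICAM-1, fell from 39.4 to 12.0 CPM in Huh7-C (log2 ratio -1.71, FDR 3.2e-15). NFKB2, a subunit gene of NF-kB also up-regulated in Hep3B-C, was named after its values were seen. The split was 3 up and 1 down with TMM library sizes and 0 up and 4 down after removal of the GC and length trends, and in the Hep3B pair TNFAIP3 was called in each case.

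CD47 encodes the "do not eat me" signal read by the macrophage receptor SIRPA (Entrez 961, chromosome 3, 108043094 to 108091862, minus strand). Its level was 59.4 CPM (50.8 to 69.0) in Hep3B against 13.6 (10.4 to 17.4) in Hep3B-C, and 19.0 (15.2 to 23.4) in Huh7 against 14.3 (11.0 to 18.3) in Huh7-C. The last 3 libraries overlapped, and Hep3B alone stood apart. CD47 was down-regulated 4.38-fold (3.26 to 5.94) in Hep3B-C, a log2 ratio of -2.12 (SE 0.21, FDR 2.2e-26). The log2 ratio was -1.53 with TMM library sizes, -1.43 after removal of the length trend alone and -0.58, below 2-fold, after removal of the GC and length trends. The CD47 transcript lies in the decile of genes with the lowest GC content, at 37.1% GC, and 30.1% of the genes in that decile had a lower ratio. In the Huh7 pair the ratio was 0.755 (0.536 to 1.06), with a log2 ratio of -0.40 (SE 0.24, FDR 0.20).

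Of 8 genes that act with CD47, 6 were listed in each pair, with 1 up- and 2 down-regulated in Hep3B-C and 0 in either direction in Huh7-C. The shares of all genes were 13.2% up and 30.4% down in the Hep3B pair, and 4.19% and 4.15% in the Huh7 pair, so these counts lie near the background. QPCTL, the enzyme that modifies CD47 for binding by SIRPA, rose from 14.8 to 62.0 CPM in Hep3B-C (log2 ratio 2.05, FDR 1.1e-23). THBS1, the CD47 ligand thrombospondin-1, fell from 983 to 355 CPM (log2 ratio -1.47, FDR 1.3e-247), and LRP1, a phagocytic receptor, from 474 to 233 CPM (log2 ratio -1.03, FDR 1.1e-67). In the Huh7 pair QPCTL had a log2 ratio of 0.30 (FDR 0.26). With TMM library sizes QPCTL alone was called in Hep3B-C (1 up, 0 down), and none of the list was called once the GC and length trends were taken out.

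The 2 enzymes, ALDH1A1 and ANPEP, had higher levels in the HCSC library than in its parent in both pairs by total count. ALDH1A1 oxidises retinaldehyde to retinoic acid (Entrez 216, chromosome 9, 72900662 to 73080442, minus strand). Its level was 455 CPM (431 to 481) in Hep3B against 709 (685 to 733) in Hep3B-C, and 325 (308 to 342) in Huh7 against 901 (873 to 930) in Huh7-C. None of the 4 intervals overlapped, and both HCSC libraries stood above both HCC libraries. In Huh7-C, ALDH1A1 was up-regulated 2.77-fold (2.61 to 2.95), a log2 ratio of 1.47 (SE 0.044, FDR 1.2e-271), and 97.9% of all genes had a lower ratio. In Hep3B-C the ratio was 1.56 (1.46 to 1.66) and the log2 ratio 0.64 (SE 0.047, FDR 4.0e-43), which is below 2-fold. The Hep3B pair gave 1.23 with TMM library sizes and 1.19 after removal of the GC and length trends, but 0.17 after removal of the length trend alone. The ALDH1A1 transcript has 41.9% GC, and in its GC decile, where the median log2 ratio of the Hep3B pair was -1.39, 97.4% of the genes had a lower ratio.

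ANPEP encodes aminopeptidase N, an ectoenzyme that trims peptides at the cell surface (Entrez 290, chromosome 15, 89784889 to 89815401, minus strand). The level was 357 CPM (335 to 379) in Hep3B against 537 (516 to 559) in Hep3B-C, and 146 (135 to 157) in Huh7 against 260 (245 to 275) in Huh7-C. Both HCSC libraries were higher than their parents, and both Hep3B-lineage libraries were higher than both of the Huh7 lineage. The ratio was 1.51 (1.40 to 1.62) in Hep3B-C, a log2 ratio of 0.59 (SE 0.053, FDR 6.7e-29), and 1.78 (1.61 to 1.96) in Huh7-C, a log2 ratio of 0.83 (SE 0.071, FDR 2.0e-31). Neither reached 2-fold by total count. The Hep3B-C value was 1.19, past 2-fold, with TMM library sizes and -0.19 after removal of the GC and length trends. At 58.4% GC, ANPEP stood at the middle of its GC decile in the Hep3B pair, where 48.4% of the genes had a lower ratio, whereas 92.4% had a lower ratio in the Huh7 pair.

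**Figure D3:**
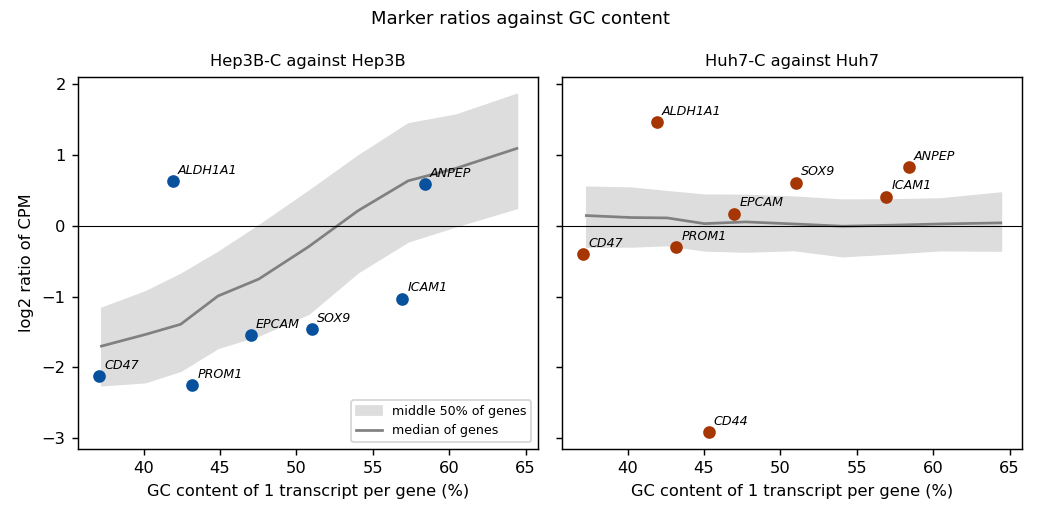
Log2 ratio of each marker against the GC content of its transcript in the Hep3B pair (left) and the Huh7 pair (right). The line is the median over deciles of the genes with at least 20 counts and the band spans the middle 50% of each decile. The median climbs from -1.70 to 1.10 in the Hep3B pair and is nearly flat in the Huh7 pair. ALDH1A1 lies above the band in both panels and CD44 far below it on the right.

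The promoters of the 6 markers with an entry in RefSeq's table are shown, whether or not the marker was called in a pair. EPCAM, SOX9 and THY1 had no entry. Each is the 250 bases before the annotated start in RefSeq, read 5′ to 3′ on the strand of the gene (GRCh38.p14). The windows are chr9:72953054-72953303 (minus) for ALDH1A1, chr15:89814853-89815102 (minus) for ANPEP, chr4:16084024-16084273 (minus) for PROM1, chr11:35138921-35139170 (plus) for CD44, chr19:10270870-10271119 (plus) for ICAM1 and chr3:108091032-108091281 (minus) for CD47. Capitals mark matches, on either strand, to the TATA box TATAAA, the CCAAT box, the GC box GGGCGG, the AP-1 motif TGANTCA or the NF-kB motif GGAAATTCC.
ALDH1A1: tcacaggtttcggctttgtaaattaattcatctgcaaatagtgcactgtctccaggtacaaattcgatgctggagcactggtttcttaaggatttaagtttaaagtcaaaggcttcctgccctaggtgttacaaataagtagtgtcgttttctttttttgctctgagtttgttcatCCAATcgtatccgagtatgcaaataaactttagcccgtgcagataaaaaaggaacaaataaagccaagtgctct
ANPEP: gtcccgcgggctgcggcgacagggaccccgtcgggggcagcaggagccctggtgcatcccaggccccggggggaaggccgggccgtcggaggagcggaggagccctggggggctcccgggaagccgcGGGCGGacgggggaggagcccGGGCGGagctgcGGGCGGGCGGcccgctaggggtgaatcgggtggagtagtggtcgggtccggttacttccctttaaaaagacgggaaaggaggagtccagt
PROM1: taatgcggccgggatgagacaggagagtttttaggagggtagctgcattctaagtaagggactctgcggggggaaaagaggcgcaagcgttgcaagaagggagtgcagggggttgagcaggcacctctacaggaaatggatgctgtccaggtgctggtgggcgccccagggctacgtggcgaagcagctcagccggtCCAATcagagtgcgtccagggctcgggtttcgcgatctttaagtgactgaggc
CD44: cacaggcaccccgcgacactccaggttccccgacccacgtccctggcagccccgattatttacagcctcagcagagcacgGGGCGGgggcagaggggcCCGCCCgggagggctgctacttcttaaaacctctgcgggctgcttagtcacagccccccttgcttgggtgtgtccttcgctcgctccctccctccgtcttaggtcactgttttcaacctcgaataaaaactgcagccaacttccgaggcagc
ICAM1: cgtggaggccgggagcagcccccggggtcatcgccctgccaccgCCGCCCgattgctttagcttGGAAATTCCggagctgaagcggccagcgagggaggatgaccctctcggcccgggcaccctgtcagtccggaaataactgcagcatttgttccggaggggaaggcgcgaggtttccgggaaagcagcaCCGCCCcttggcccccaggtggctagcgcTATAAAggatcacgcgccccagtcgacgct
CD47: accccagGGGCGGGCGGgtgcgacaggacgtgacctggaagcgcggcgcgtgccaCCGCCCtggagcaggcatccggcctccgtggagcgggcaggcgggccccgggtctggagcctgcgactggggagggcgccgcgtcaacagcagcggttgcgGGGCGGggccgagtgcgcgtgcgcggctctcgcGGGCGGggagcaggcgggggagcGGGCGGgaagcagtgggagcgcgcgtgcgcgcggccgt

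The ALDH1A1 window held 6 CpG dinucleotides, against a median of 20 over the promoters of 12679 listed genes, and a CCAAT match whose first base lay at -74 from the start. The ANPEP window held 26 CpG and 4 GC boxes, at -123, -102, -90 and -86, of which the last 2 overlap. PROM1 held 13 CpG and a CCAAT match at -53, and CD44 held 15 CpG and GC boxes at -170 and, on the other strand, at -152. The promoters of the 2 enzymes stood apart in CpG content, with 14.8% of all the promoters below ALDH1A1 and 70.0% below ANPEP. The ICAM1 window held 23 CpG, a TATA match at -30, an NF-kB match at -186 and GC boxes on the other strand at -206 and -59. CD47 held 39 CpG and 6 GC boxes. A CCAAT match was found in 34.6% of all the promoters and a GC box in 62.9%. TATAAA was found in 6.58%, TGANTCA in 4.25% and GGAAATTCC in 0.394% of them.

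Among 31 aldehyde dehydrogenase and retinoid genes, 27 were listed in the Hep3B pair with 5 up- and 1 down-regulated, against 13.2% and 30.4% of all genes. The Huh7 pair listed 28, with 1 up- and 3 down-regulated, against 4.19% and 4.15% of all genes. The list median log2 ratio was 0.31 in the Hep3B pair and -0.16 in the Huh7 pair, against -0.55 and 0.06 for all genes. ALDH1L1, a folate enzyme of the family, had 0 counts in Hep3B and 106 in Hep3B-C (FDR 5.4e-22). ALDH4A1, of proline catabolism, rose from 79.8 to 490.1 CPM in Hep3B-C (log2 ratio 2.62, FDR 3.6e-240) and went from 58.8 to 33.7 CPM in Huh7-C (log2 ratio -0.80, FDR 2.7e-07). ALDH16A1 rose from 27.3 to 120.4 CPM in Hep3B-C (log2 ratio 2.13, FDR 2.4e-47) and stood at 117 and 119 CPM in the Huh7 pair. RARB, a retinoic acid receptor gene that retinoic acid induces, was down-regulated in both pairs, from 17 counts to 1 in Hep3B-C (FDR 2.0e-06) and from 13 to 0 in Huh7-C (FDR 0.00079). CYP26A1 and DHRS3, which remove retinoic acid and retinaldehyde, were down-regulated in Huh7-C, from 24 counts to 0 (FDR 8.2e-07) and from 548 to 135 (FDR 3.5e-54). The Hep3B split was 10 up and 1 down with TMM library sizes and 4 up and 5 down after removal of the GC and length trends, with ALDH1L1 and ALDH4A1 up and RARB down in each case. RARB, CYP26A1 and DHRS3, and ALDH3A1 and ALDH6A1 (up in Hep3B-C) and ALDH3B1 (up in Huh7-C), were named after their values were seen.

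Of 12 peptidases other than ANPEP, 11 were listed in the Hep3B pair with 0 up- and 5 down-regulated, against 13.2% and 30.4% of all genes. The Huh7 pair listed 9, with 1 up- and 0 down-regulated, against 4.19% and 4.15% of all genes. By total count, the 5 genes down-regulated in Hep3B-C had the opposite sign to ANPEP. DPP4, the dipeptidyl peptidase CD26, fell from 186 to 17.0 CPM in Hep3B-C (log2 ratio -3.45, FDR 9.8e-139) and rose from 21.8 to 49.6 CPM in Huh7-C (log2 ratio 1.18, FDR 4.0e-11). CPD fell from 1034 to 221 CPM (log2 ratio -2.23) and LNPEP from 17.3 to 4.52 CPM (log2 ratio -1.91, FDR 1.4e-07) in Hep3B-C. The others were ERAP1 and TRHDE, named after their values were seen. The split was 0 up and 4 down with TMM library sizes and 1 up and 1 down (DPP4) after removal of the GC and length trends.

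SOX9 encodes a transcription factor of bile duct and progenitor cells (Entrez 6662, chromosome 17, 72121020 to 72126420, plus strand). Its level was 207 CPM (191 to 224) in Hep3B against 75.2 (67.5 to 83.5) in Hep3B-C, and 58.4 (51.6 to 65.9) in Huh7 against 89.3 (80.6 to 98.7) in Huh7-C. Hep3B stood above the rest, and the HCSC libraries overlapped (FDR 0.043). SOX9 was down-regulated 2.76-fold (2.41 to 3.15) in Hep3B-C, a log2 ratio of -1.46 (SE 0.097, FDR 1.5e-52), and the value was -0.87, below 2-fold, with TMM library sizes and -1.31 after removal of the GC and length trends. In Huh7-C the ratio was 1.53 (1.30 to 1.79), a log2 ratio of 0.61 (SE 0.11, FDR 7.4e-07). All 13 genes of a biliary progenitor list were measured in both pairs, with 1 up- and 8 down-regulated in Hep3B-C and 0 in either direction in Huh7-C. Of all genes, 13.2% were up- and 30.4% down-regulated in the Hep3B pair, and 4.19% and 4.15% in the Huh7 pair. The list median log2 ratio was -1.69 in the Hep3B pair and -0.27 in the Huh7 pair, against -0.55 and 0.06 for all genes. ONECUT1, a hepatobiliary transcription factor, fell from 92.9 to 4.74 CPM (log2 ratio -4.26, FDR 5.1e-83), and JAG1, a Notch ligand needed for bile ducts, from 130.2 to 13.4 CPM (log2 ratio -3.28, FDR 1.3e-92) in Hep3B-C. In Huh7-C, JAG1 had a log2 ratio of -0.84 (FDR 4.9e-05), below 2-fold. The gene up-regulated was SPP1, which is also in the CD44 list. The Hep3B split was 1 up and 7 down with TMM library sizes and 1 up and 5 down after removal of the GC and length trends, with ONECUT1 and JAG1 down in each case.

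**Figure D4:**
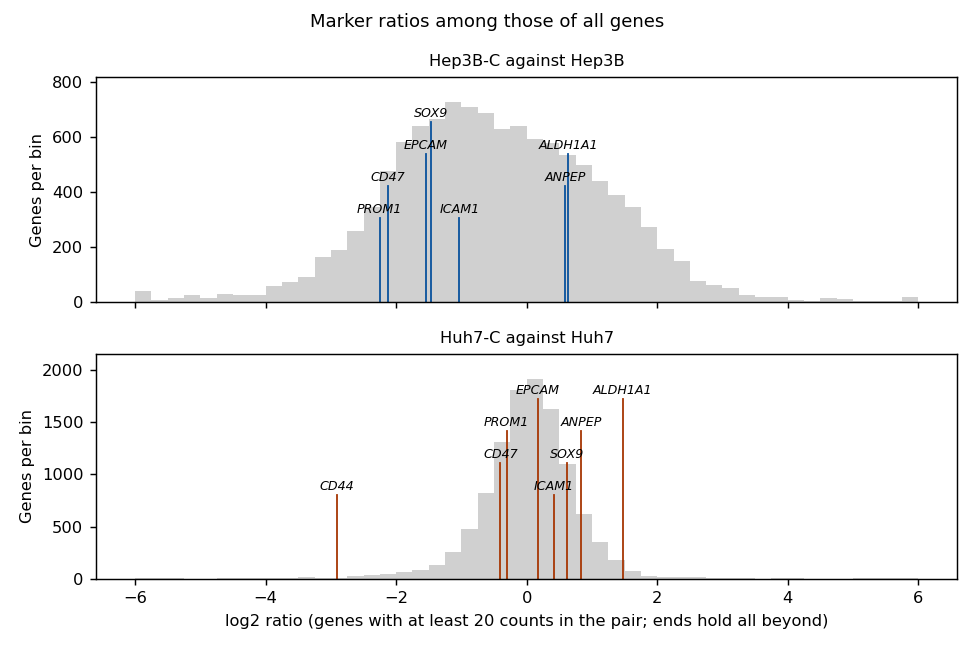
Distribution of the log2 ratio over genes with at least 20 counts in the Hep3B pair (top) and the Huh7 pair (bottom), with the markers as vertical lines of arbitrary height. The upper distribution is broad with its median at -0.55, and the 5 down-regulated markers lie to the left of that median. The lower one is narrow with its median at 0.06, and CD44 and ALDH1A1 lie in its tails.

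The ratio of HCSC to HCC was then compared between the parental lines by an exact conditional test of the 4 counts. The ratio differed for 6 of the 7 markers listed in both pairs, at an FDR of at most 0.01, and by the same test for 48.9% of the 13917 genes. In all 7 the total-count log2 ratio was lower in the Hep3B pair, which for ANPEP turned with TMM library sizes. The median over all genes with at least 20 counts was lower there too, at -0.55 against 0.06 in the Huh7 pair. The share of all genes with the lower ratio in the Hep3B pair was not counted. The difference was -2.07 (95% interval -2.38 to -1.77, FDR 6.6e-43) for SOX9 and -1.44 (-1.67 to -1.22, FDR 8.0e-37) for ICAM1, both of which were lower in Hep3B-C and higher in Huh7-C than in their parents. It was -1.95 (-2.40 to -1.49, FDR 4.8e-16) for PROM1, -1.71 (-2.03 to -1.40, FDR 3.5e-26) for EPCAM and -1.72 (-2.39 to -1.06, FDR 4.9e-07) for CD47, which passed the FDR threshold in the Hep3B pair and not in the Huh7 pair. For ALDH1A1, higher in both HCSC lines, it was -0.83 (-0.96 to -0.71, FDR 1.3e-36). For ANPEP it was -0.24 (-0.42 to -0.065, FDR 0.014), which did not pass the threshold. With TMM library sizes the values of the 6 were nearer 0, from -1.44 for SOX9 to -0.20 for ALDH1A1 (FDR 0.0055). That of ANPEP turned to 0.40 and passed the threshold (FDR 2.8e-05), with the higher ratio in the Hep3B pair. All 7 then differed, against 46.6% of the 13917 genes by the same scaling. The difference was not tested with the GC and length trends removed. After that removal the CD47 log2 ratios lay close together, at -0.58 in the Hep3B pair and -0.63 in the Huh7 pair. In the same order they were -1.20 and -0.43 for PROM1, -1.59 and 0.38 for EPCAM, and -1.31 and 0.58 for SOX9. They were -1.76 and 0.43 for ICAM1, 1.19 and 1.58 for ALDH1A1, and -0.19 and 0.79 for ANPEP.

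The markers separated the parental lines as well. Of the 9, 1 was higher (CD44) and 6 were lower in Huh7 than in Hep3B past 2-fold, against 15.6% and 26.2% of the 16370 genes. The log2 ratio of Huh7 to Hep3B was -3.88 for PROM1, -3.57 for EPCAM, -1.83 for SOX9, -1.66 for ICAM1, -1.64 for CD47 and -1.29 for ANPEP. ALDH1A1, at -0.49, stayed below 2-fold. With TMM library sizes ANPEP also stayed below 2-fold (-0.99), which left 1 higher and 5 lower, against 20.4% and 21.5% of all genes. Between the HCSC lines, 1 marker was higher (CD44) and 3 were lower in Huh7-C than in Hep3B-C, against 16.6% and 11.3% of all genes. The 3 were PROM1 at -1.93, EPCAM at -1.86 and ANPEP at -1.05. For SOX9, ICAM1 and CD47 the log2 ratios between the HCSC lines were 0.25 (FDR 0.043), -0.21 (FDR 0.013) and 0.076 (FDR 0.98). With TMM library sizes these values were 0.041 for SOX9, -0.42 for ICAM1 and -0.13 for CD47, so that of CD47 turned in sign. ICAM1 then passed the FDR threshold (FDR 2.4e-07), below 2-fold.

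Across both pairs together, the 2 HCSC libraries were set against the 2 HCC libraries with edgeR and the parental line as a block. The block takes out the difference in level between the lines, and the disagreement of the HCSC/HCC ratios between the pairs is the spread that is left. Of the 9 markers, 8 passed the filter on low counts, and 0 reached an adjusted p of 0.05, against 0.0342% of 11691 genes up- and 0.0428% down-regulated. CD44 alone, 1 marker, had an unadjusted p below 0.05. Its edgeR log2 fold change was -2.91 (adjusted p = 0.999) and rests on the Huh7 pair, since both Hep3B libraries had 0 counts. DESeq2 also gave 0 markers at an adjusted p of 0.05 and 1 below an unadjusted 0.05. The edgeR log2 fold change was 1.22 for ALDH1A1 and 0.88 for ANPEP, and -1.12 for PROM1, -1.10 for CD47, -0.52 for EPCAM, -0.26 for SOX9 and -0.14 for ICAM1. Leaving out Hep3B or Hep3B-C turned EPCAM to 0.12, SOX9 to 0.56 and ICAM1 to 0.36 and moved PROM1 to -0.36 and CD47 to -0.45, and leaving out Huh7 or Huh7-C moved these 5 to -1.15, -1.07, -0.64, -1.87 and -1.74. ALDH1A1 stayed between 1.03 and 1.42 and ANPEP between 0.78 and 0.98. This fit has 1 residual degree of freedom, and its biological coefficient of variation was 0.514.

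A wider list of 23 other cancer stem cell markers was counted in the same way. In the Hep3B pair 20 were listed, with 3 up-regulated (DLK1, ABCG2 and SOX2) and 9 down-regulated, and in the Huh7 pair 18 were listed, with 1 up-regulated (CACNA2D1) and 2 down-regulated (CD24 and ABCG2). The median log2 ratio was -2.01 in the Hep3B pair and 0.32 in the Huh7 pair, against -0.55 and 0.06 for all genes. Of all genes, 13.2% were up- and 30.4% down-regulated in the Hep3B pair, and 4.19% and 4.15% in the Huh7 pair. CD24, a mucin-like surface marker, fell from 1693 to 217 CPM in Hep3B-C (log2 ratio -2.97) and from 1022 to 387 CPM in Huh7-C (log2 ratio -1.40, FDR 1.2e-284), though reads of its near-identical copies may be shared. SALL4, an oncofetal transcription factor, had 78 counts in Hep3B and 4 in Hep3B-C (log2 ratio -4.81, FDR 5.6e-27) and had 111 and 76 counts in Huh7 and Huh7-C (FDR 0.068). LGR5, a Wnt-pathway stem cell receptor, fell from 69.7 to 10.3 CPM in Hep3B-C (log2 ratio -2.74, FDR 8.8e-42). ABCG2, the drug efflux pump of side-population cells, went in opposite directions, from 8 to 47 counts in Hep3B-C (FDR 0.00041) and from 220 to 62 in Huh7-C (FDR 3.2e-19). It and the other genes called up were named after their values were seen. The Hep3B split was 3 up and 8 down with TMM library sizes and 1 up (ABCG2) and 7 down after removal of the GC and length trends, with CD24, SALL4 and LGR5 down in each case.

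The genes nearest in pattern to each marker were sought among 11355 genes with at least 50 counts, by the distance of log2(CPM + 1) over the 4 libraries after centring, as a description with 4 points per gene. The CD44 pattern was rare, since 1 gene, RGAG4, lay within a distance of 0.5 (0.19), with levels of 0, 0, 37.2 and 4.15 CPM in Hep3B, Hep3B-C, Huh7 and Huh7-C. CABP7 (0.55) and PCSK1N (0.58) came next. PROM1 had 23 genes within 0.5, led by RTKN2 (0.14), MCAM (0.25) and LOC645166 (0.27), and EPCAM had 30, led by KLF12 (0.13), PCNXL2 (0.18) and DLX6 (0.24). ALDH1A1 had 34, led by KHDRBS3 (0.22), RAD54L (0.24) and ANKRD13B (0.25). In Huh7 and Huh7-C, KLF12 and DLX6 each stood at 0 and 0.231 CPM, against 43.2 and 48.7 for EPCAM. RTKN2 stood there at 0.882 and 0.692 CPM and MCAM at 0.441 and 0, against 25.1 and 20.3 for PROM1. The 1 added to the CPM narrows ratios at such low levels, so a small distance to these genes does not mean equal ratios. The patterns of the remaining markers were common. ANPEP had 80 genes within 0.5 (nearest KHSRP, POLM and KIFC1), CD47 had 288 (PPM1A, RECK and RPL32P3), ICAM1 had 471 (SSH2, SLC38A9 and AP4E1) and SOX9 had 508 (MTERF, KDM1B and SUV420H1).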

How the data were processed

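mRNA libraries of Hep3B, Huh7, Hep3B-C and Huh7-C, 1 per line, were sequenced on a Genome Analyzer II. Per the study's methods, the authors filtered the reads, aligned them to NCBI Build 36.1 with NextGENe and deposited raw counts per gene, used here as deposited. Strandedness was not given in the sources used here, so antisense and overlapping genes are not separated. A gene missing from a table was taken as 0 counts. CPM used the total count, and RPKM the deposited gene length. Each pair was compared by the Audic-Claverie Poisson test (0.5 added to counts for log2 ratios and their SE) with Benjamini-Hochberg FDR over all genes of the pair, intervals of ratios were exact conditional binomial, and differences between pairs used Fisher's noncentral hypergeometric distribution. The joint fit used edgeR 4.0.16 (quasi-likelihood, TMM, filterByExpr, parental line as block) and, as an alternative, DESeq2 1.42.0, in R 4.3.3, with Python 3.11.15 and scipy 1.17.1 elsewhere. The FDR of at most 0.01 and the 2-fold rule for each pair are those stated in the study's methods. The adjusted p of 0.05 for the joint fit and the FDR rule for differences between pairs were set here. GC content came from the GENCODE 29 transcript nearest in length to the deposited gene length, and its trend was removed with a spline of 5 degrees of freedom. The tests were run on simulated data, with Poisson counts for the tests of counts. For the joint fit a biological coefficient of variation of 0.2 was simulated, below the 0.514 of the data. These simulations therefore do not check the tests against the spread between cultures. The members and gene lists were chosen with earlier results of these data known. All 9 markers are reported. Other genes were named by rule: from each list, up to 3 genes with the largest absolute log2 ratio among those called with at least 50 counts in a library, and the 3 genes nearest in pattern to each marker. Splits of the gene lists with TMM library sizes and with the trends removed were added after seeing the data. Some genes of the lists are counted but not reported by name here.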

Additional observations from a re-analysis of the deposited data

Results flagged for a closer look

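For 6 markers the HCSC/HCC log2 ratio differed between the parental lines by the exact conditional test. The difference, Hep3B pair minus Huh7 pair, was -1.95 for PROM1, -1.71 for EPCAM, -2.07 for SOX9, -0.83 for ALDH1A1, -1.44 for ICAM1 and -1.72 for CD47. By the same test 48.9% of all genes differed, and with TMM library sizes the values were -1.31, -1.08, -1.44, -0.20, -0.81 and -1.08 in the same order. After removal of the GC and length trends the log2 ratios of the Hep3B pair were -1.20, -1.59, -1.31, 1.19, -1.76 and -0.58. Those of the Huh7 pair were then -0.43, 0.38, 0.58, 1.58, 0.43 and -0.63, and their difference was not tested. The exact conditional test covers counting error only.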

How the results depend on the processing

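With 1 library per line, the counting tests say nothing of the spread between cultures. At an assumed biological coefficient of variation of 0.4, markers called went from 5 to 0 in Hep3B-C and 2 to 0 in Huh7-C. They went from 7 to 3 between Huh7 and Hep3B, against 1.73% of all genes up and 4.51% down. Between Huh7-C and Hep3B-C they went from 4 to 0, against 1.88% and 2.41%. At 0.2, 4 markers were called in Hep3B-C, against 8.88% of all genes up and 20.5% down. In Huh7-C 1 marker was called at 0.2, against 0.655% and 1.09%. Over all genes the calls at 0.4 fell from 2043 up and 4708 down to 62 and 169 in the Hep3B pair, and from 620 and 614 to 13 and 12 in the Huh7 pair. TMM library sizes moved the calls of the Hep3B pair from 2043 up and 4708 down to 3348 and 2799, and removing the GC and length trends moved them to 793 and 3192. Under these alternatives the log2 ratio turned in sign for ANPEP in Hep3B-C (-0.19, GC and length), CD47 in Huh7-C against Hep3B-C (-0.13, TMM) and the ANPEP difference between pairs (0.40, TMM); the cause was not tested. In the joint fit 0 markers were called with the parental line as the replicate block, and 0 without the block. Leaving out a library of the joint fit left no residual degrees of freedom, so it gave values with no test, in which EPCAM, SOX9 and ICAM1 turned in sign (0.12, 0.56 and 0.36) without Hep3B or Hep3B-C. Of the alternative values for single markers in the Hep3B pair, 43 kept their direction and status (called or not called), 14 lost the call, 5 gained it and 1 turned in sign. For the Huh7 pair 69 kept both and 3 lost the call. The values kept include those of markers that were not called and stayed so. Only ALDH1A1 and CD44 had a call to lose in the Huh7 pair, and ALDH1A1 and ANPEP had none in the Hep3B pair.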

Other observations

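Genes of other cell types were read in the same libraries. PECAM1, an endothelial and leukocyte adhesion gene, had 8, 13 and 17 counts in Hep3B, Hep3B-C and Huh7 and 93 in Huh7-C, while CDH5 and TEK, which define endothelium, had 0 counts in all 4. KRT19, a keratin of bile duct cells, had 212 and 88 counts in Hep3B and Hep3B-C and 1 and 7 in Huh7 and Huh7-C.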
